A study of Mus musculus with 49 samples.

Results

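Wnt4, Pax8, Lhx1, Jag1, Cdh6 and Ccnd1 are genes known for the first steps by which kidney mesenchyme becomes nephron epithelium, and they are described here in 49 single cells taken near the time at which that process starts. The 6 genes were taken by symbol from a table of 13093 genes, and each was on 1 row. Each value is an RPKM, which corrects the reads of a gene for its length and for how many reads of that cell were mapped. A gene was counted as found in a cell at 1 RPKM or more and as high at 10 RPKM or more.

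The cells came from the metanephric mesenchyme, the tissue that surrounds the ureteric bud, of embryos at 11.5 dpc (Theiler stage 19). The embryos carried the transgene Tg(Crym-EGFP)82Gsat, in which regulatory sequence of the Crym gene drives a green fluorescent protein, on a mixed background, and both sexes are listed. The tissue was cut out under fluorescence with a small margin outside the labelled domain, and cells were captured on a Fluidigm C1 chip and sequenced one by one. No embryo or litter is named, so all cells form 1 group without treatment or control and count as 1 sample. Cells are not replicates, no p-value was computed, and the interval given with a share of cells is an exact binomial one that covers counting error only.

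In the embryonic kidney, a Wnt signal from the ureteric bud induces the mesenchyme next to it to form aggregates and then epithelial vesicles. Wnt4 is the secreted signal that the induced cells make themselves and need to become epithelial. Jag1 is a membrane ligand of the Notch receptors, Pax8 is a paired-box transcription factor whose role overlaps with that of Pax2, and Lhx1 is a LIM homeobox transcription factor of the renal vesicle. Cdh6 is a cadherin, an adhesion protein, of the early nephron epithelium, and Ccnd1 is cyclin D1, which with its kinase partners moves a cell from G1 towards S phase.

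The data bear on whether these genes lie in the same cells, so the 250 bases before the start of Wnt4, Pax8 and Jag1, 3 genes that shared cells with each other, are shown. They are RefSeq sequences of the mouse build GRCm38.p6, 5′ to 3′ on the strand of the gene, with CG pairs in capitals. The windows are chr4:137277385-137277634 on the plus strand for Wnt4, chr2:24475600-24475849 on the minus strand for Pax8 and chr2:137116521-137116770 on the minus strand for Jag1.
Wnt4: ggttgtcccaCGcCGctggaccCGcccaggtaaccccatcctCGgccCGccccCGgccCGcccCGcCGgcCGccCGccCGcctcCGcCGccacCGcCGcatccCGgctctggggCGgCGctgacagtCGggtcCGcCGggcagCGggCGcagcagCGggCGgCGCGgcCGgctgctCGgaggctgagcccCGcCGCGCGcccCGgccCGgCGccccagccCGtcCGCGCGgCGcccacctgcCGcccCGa
Pax8: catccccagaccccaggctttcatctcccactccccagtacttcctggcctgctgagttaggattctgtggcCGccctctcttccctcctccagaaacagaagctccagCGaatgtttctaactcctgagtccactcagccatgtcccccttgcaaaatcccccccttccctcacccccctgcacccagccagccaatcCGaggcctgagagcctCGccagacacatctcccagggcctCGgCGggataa
Jag1: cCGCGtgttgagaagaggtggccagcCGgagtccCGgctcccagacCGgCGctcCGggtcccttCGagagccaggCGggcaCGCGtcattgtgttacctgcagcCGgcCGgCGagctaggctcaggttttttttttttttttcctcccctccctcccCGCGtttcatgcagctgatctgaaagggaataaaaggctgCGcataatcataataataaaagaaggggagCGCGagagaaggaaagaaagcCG
The Wnt4 window holds 44 CG pairs and is 85.2% G or C, the Jag1 window holds 20 and is 57.2%, and the Pax8 window holds 6 and is 60.4%. The median of 32851 windows of this length is 6 CG pairs and 52.4% G or C, and 0.539% of them hold at least as many CG pairs as the Wnt4 window. Windows were also matched for Lhx1 with 26 CG pairs and for Cdh6 with 6. Ccnd1 had no entry. The letters CTTTGA, the core that TCF/LEF factors bind, and GTGGGAA, a core that RBPJ binds, were searched on both strands and stood in 13.8% and 5.42% of all windows, and in none of the 5 member windows.

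Cells found between 3610 and 6510 genes each, with a median of 5210. The depth of sequencing relative to the median cell, read from the steps between low values, was 0.0346 in cell 3 and 0.0462 in cell 7 and 0.693 to 1.52 in the other cells. Cell 25 held 10 of 12 ureteric bud genes and cell 27 held 8 of 8 analysed endothelial genes, so both hold markers of another cell type; cell 25 holds many stromal genes as well. Cell 25 carries Lhx1, Pax8, Jag1 and Ccnd1, cell 27 carries none of the 6, cell 3 carries Pax8 and Ccnd1, and cell 7 carries Ccnd1. The counts of cells per member and of cells with 2 or more members are given with and without them where they change. The same holds for the correlation of Ccnd1 with Ccnd2. Most other counts, such as the cells shared by a pair of genes and the classes by Six2 and Foxd1, include these cells. The mesenchyme markers Crym, Wt1 and Sall1 were found in 48, 47 and 44 cells and were high in 30, 37 and 35. Crym was low in cells 25 and 27, at 4.19 and 4.92 RPKM. Six2 was found in 27 cells and Foxd1, the marker of stromal progenitors, in 24.

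Wnt4 was found in 3 of 49 cells (6.12%, 95% interval 1.28 to 16.9%) and was listed at 0 in the other 46. Its level was 52.2 RPKM in cell 28, 2.71 in cell 6 and 1.91 in cell 23. One cell therefore stood well above the other two, which were near the threshold. Of all 13093 genes, 18.2% were found in 3 cells or fewer, so a count this low was common in the table. In the table's build, mm9, Wnt4 (gene ID 22417) lies at chr4:136833550-136852694.

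All 3 Wnt4 cells held Six2 and lacked Foxd1. They held 8, 9 and 12 of 16 nephron progenitor genes (cells 28, 6 and 23), where the median of all cells was 8. Six2, the transcription factor that keeps these progenitors undifferentiated, was at 2.25 RPKM in cell 28, 5.94 in cell 6 and 70.3 in cell 23. Its order across the 3 cells was the reverse of the Wnt4 order. The Wnt4 levels of cells 6 and 23 were both near the threshold, and an order of 3 cells cannot show a relation. Eya1, a co-activator that acts with Six2, was at 126, 177 and 48.5 RPKM in cells 28, 6 and 23. Crym was at 77.5, 2.74 and 210 there, where its median over all cells was 141. Foxd1 and Cited1, a marker of the least committed progenitors, were at 0 in all 3. The absence of Cited1 is set against its presence in only 12 of 49 cells, which gives 0.735 shared cells as the product of both counts over 49. For Foxd1 the same product is 1.47.

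Hes6, a Hes family regulator, was found in 20 of 49 cells and in all 3 Wnt4 cells, at 39.5 RPKM in cell 28, 63.3 in cell 6 and 66.0 in cell 23. Ccnd1 was found in all 3, at 29.5, 5.45 and 42.8 RPKM, Pax8 in cells 6 and 23 and Jag1 in cells 28 and 6. The strongest Wnt4 cell had no Pax8 (0 RPKM). That cell held 6 of the 16 analysed early nephron genes, where the median cell held 2, among them Cdh4 at 34.0 RPKM, and none of the 12 ureteric bud genes. Stromal genes were few in cell 28 (4 of 17) and more in cell 23 (10 of 17, with Pdgfra at 15.8 and Col1a1 at 11.7 RPKM), where all cells had a median of 9. Aldh1a2, a retinoic acid synthesis gene on the stromal list, was found in all 3, at 214 RPKM in cell 28, 244 in cell 6 and 17.7 in cell 23.

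Wnt pathway genes were read from a list of 33, of which 27 were analysed. Part of the shared machinery was found in nearly all cells, with Ctnnb1, Gsk3b and Tcf7l2 in 49 and the receptor Lgr4 in 48. Other parts were found in fewer, with Lrp6 in 37, Apc in 34, Axin1 in 15 and Lrp5 in 2. In all, 6 of the 27 genes were found in 40 cells or more. Target and feedback genes varied, with Znrf3 in 33 cells, Tcf7 in 12, Axin2 in 6, Nkd1 in 5 and Lef1 in 4. The Wnt4 cells held Axin2 in cell 23 at 6.23 RPKM, while Tcf7, a relative of Lef1, was at 14.4 in cell 28. The bud ligands Wnt9b and Wnt11 were found in 1 and 2 cells. The number of list genes per Wnt4 cell was 11 to 17, against a median of 11 in all cells.

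Jag1 was found in 10 of 49 cells (20.4%, 95% interval 10.2 to 34.3%), 4 of them at 10 RPKM or more. It was at 52.2 RPKM in cell 47, 44.5 in cell 25, 35.5 in cell 42 and 22.1 in cell 50. It was at 8.78 in cell 12, 7.78 in cell 28, 3.71 in cell 6, 3.66 in cell 29, 1.26 in cell 38 and 1.23 in cell 43. Another 7 cells held traces of 0.0806 to 0.501 RPKM and 32 cells were at 0. At median depth the smallest step between Jag1 values was 0.103 RPKM. Traces lay at 4 steps or fewer, and the lowest found cell lay at 13.0 steps. The cut of 1 RPKM itself lay at 7.98 to 12.4 steps in the cells with Jag1 above 0, so the order of traces and found cells was set by it. In the shallow cells 1 step was 2.96 RPKM (cell 3) or 2.22 RPKM (cell 7), so a low Jag1 level could not be seen there. Found in 10 cells or fewer is the case for 38.1% of all genes. Jag1 (16449) lies at chr2:136907194-136942067 in mm9.

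Without cells 25 and 27 Jag1 was found in 9 cells. The Jag1 cells did not belong to one mesenchyme class. Six2 was found in 6 of them and Foxd1 in 5, beside products of counts over 49 of 5.51 and 4.90. Cells were put into 4 classes by whether Six2 and Foxd1 reached 1 RPKM, and Jag1 was found in 4 of 18 cells with Six2 only, 3 of 15 with Foxd1 only, 2 of 9 with both and 1 of 7 with neither. The 4 high cells were themselves mixed. Cell 47 held Six2 at 3.86 and Foxd1 at 2.83 RPKM with Crym at 298, cell 50 held Six2 at 44.1 and Foxd1 at 36.4, cell 42 held Foxd1 at 10.0 without Six2, and cell 25 held the ureteric bud genes.

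Keratin genes were found in some Jag1 cells. Krt8 and Krt18, the paired keratins of simple epithelia, were each found in 3 cells, and these were cells 25, 12 and 50, all with Jag1. Krt8 was at 88.0, 10.6 and 15.0 RPKM and Krt18 at 48.3, 33.3 and 6.60 in that order. Cell 25 accounts for the highest values, and without it the 2 remaining keratin cells still both held Jag1. Beyond Krt8 and Krt18 those 2 cells held 1 gene of the bud list each. In cell 12 it was Krt19, also a keratin, at 7.92 RPKM, and in cell 50 it was Hoxb7 at 116. Hoxb7 was found in 15 of all 49 cells and was below 1 RPKM in cell 25, at 0.790. Ret, the receptor of the bud tip, was found in cell 25 alone. Epcam, an epithelial adhesion protein found in 3 cells, was at 163 RPKM in cell 29, another Jag1 cell, at 39.9 in cell 25 and at 26.4 in cell 18, where Jag1 was at 0.

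Other early nephron genes lay partly in Jag1 cells. Cdh4, a cadherin of the early renal vesicle, was found in 5 cells, and 4 of them were Jag1 cells (product of counts over 49, 1.02): cell 12 at 50.4 RPKM, cell 28 at 34.0, cell 50 at 6.91 and cell 47 at 1.04. Lef1, a Wnt effector, was found in 4 cells at low levels, and 3 were Jag1 cells, with 3.31 RPKM in cell 12, 2.50 in cell 42 and 1.99 in cell 47. Bmp2 was found in 1 cell, cell 50, at 36.7 RPKM. Greb1 shared 4 of its 8 cells with Jag1, and Fgf8 (2 cells), Dll1 (1) and Papss2 (1) shared none. For Fgf8, Dll1 and Papss2 the product of counts over 49 lay below 1 cell, so sharing none is no result about them. Jag1 cells found a median of 5771 genes each, above the 5210 of all cells, and the part of this in the shared finds was not tested.

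Genes of the Notch pathway ranged from nearly all cells to single cells. Of 31 list genes 26 were analysed, and a cell found 6 to 16 of them with a median of 10. Notch2 was found in 44 cells at a median of 6.77 RPKM and in all 10 Jag1 cells, at 2.42 to 16.9 RPKM. Notch3 was found in 28 cells, Notch1 in 5 and Notch4 in 2, and the nuclear factor Rbpj in 34. The target Hes1 was found in 32 cells and in 8 of the 10 Jag1 cells. Hey1 was found in 11 cells, Hey2 in 8 and Heyl in 7, with the highest Heyl value, 161 RPKM, in cell 12. Of the other Notch ligands, Dll1 at 39.9 RPKM and Dll4 at 8.14 RPKM were found only in cell 27, the cell with endothelial genes.

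**Figure D1:**
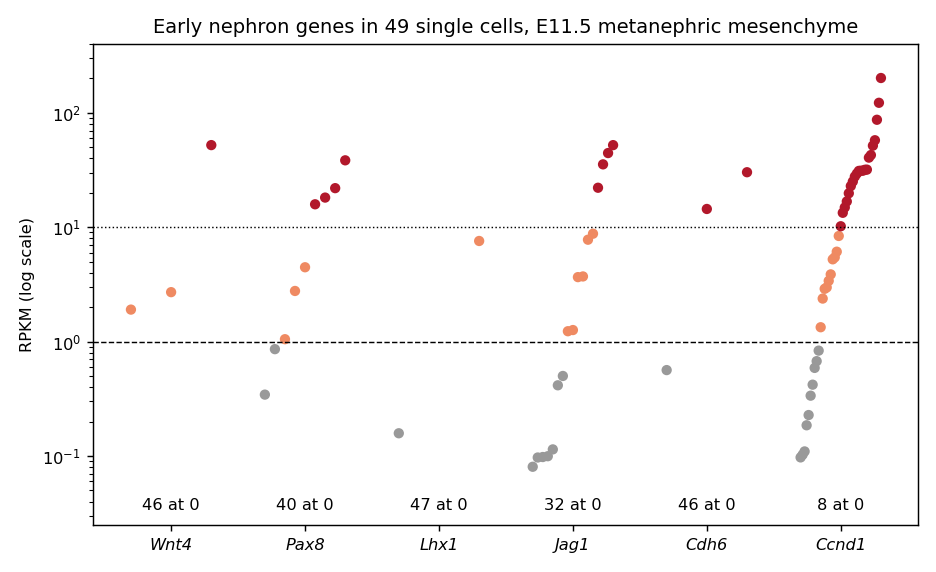
RPKM of the 6 genes in single cells on a log scale, each point 1 cell with a value above 0, ordered by level within a gene; dashed and dotted lines mark 1 and 10 RPKM and the number below gives the cells at 0. Ccnd1 spans 0.0973 to 202 RPKM, while Wnt4, Lhx1 and Cdh6 each have 3 points or fewer.

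Pax8 was found in 7 of 49 cells (14.3%, 95% interval 5.94 to 27.2%), 4 of them high. It was at 38.5 RPKM in cell 6, 22.0 in cell 23, 18.2 in cell 47 and 15.9 in cell 36. It was at 4.47 in cell 3, 2.77 in cell 25 and 1.05 in cell 21, and cells 50 and 12 held traces of 0.860 and 0.344. The other 40 cells were at 0, and the 4 high cells lay well above the other 3. Cells 3 and 25, the shallow cell and the cell with bud genes, are both among the low ones: 6 cells had Pax8 without cells 3 and 7, and 6 without cells 25 and 27. A count of 7 cells or fewer held for 30.7% of all genes. Pax8 (18510) lies at chr2:24276080-24331086 in mm9.

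Pax8 lay mostly in Six2 cells. Six2 was found in 6 of the 7, all but cell 25, and the product of counts over 49 is 3.86. The levels of Six2 were 5.94 RPKM in cell 6, 70.3 in cell 23, 3.86 in cell 47, 54.3 in cell 36, 7.44 in cell 3 and 66.1 in cell 21. High Pax8 thus occurred with low and with high Six2. By class, Pax8 was found in 3 of 18 cells with Six2 only, 3 of 9 with both Six2 and Foxd1, 1 of 15 with Foxd1 only and 0 of 7 with neither. The counts are small, and the last class holds only 7 cells.

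Pax8 and its paralog Pax2 were each found in few cells. Pax2 was found in 8 cells and shared 2 with Pax8, cell 23 at 13.0 RPKM and cell 21 at 2.12, beside a product of 1.14. In 3 of the 4 cells with high Pax8, cells 6, 47 and 36, Pax2 was at 0, as it was in 38 of all 49 cells. Cited1 was found in 3 Pax8 cells, beside a product of 1.71, at 281 RPKM in cell 36, 41.3 in cell 21 and 16.8 in cell 47. Cell 36 has the highest Cited1 value of the 49 cells and no Wnt4, Jag1 at a trace of 0.0996 RPKM and Ccnd1 at 0.

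All 4 cells with high Pax8 held Hes6, at 63.3 RPKM in cell 6, 66.0 in cell 23, 61.7 in cell 47 and 55.4 in cell 36. Hes6 at 10 RPKM or more was not particular to them, since 16 of all 49 cells held it. Most of those 16 lay below the levels of these 4 cells, while cells 1 and 33 lay above them, at 162 and 124 RPKM. Cells 3 and 25, with lower Pax8, had Hes6 at 0, and cell 21 held it at 33.8 RPKM. Cell 3 is too shallow to show a low level of Hes6. Genes of the G2 and M phases were frequent in Pax8 cells, with 5 to 14 of 14 found and a median of 12, against a median of 8 in all cells. Cenpf, a kinetochore protein made late in the cell cycle, was found in 7 of 7 Pax8 cells and in 27 of all 49. Pax8 cells also found more genes in all (median 6275), and whether that number accounts for the frequent late-cycle genes was not tested.

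Lhx1 was found in a single cell, cell 25, at 7.59 RPKM (2.04% of cells, 95% interval 0.0517 to 10.9%). Cell 12 held a trace of 0.158 RPKM and 47 cells were at 0. No cell reached 10 RPKM, and 0 of 49 cells allows a share of up to 6.12%, taken as 3 cells of 49. Without cell 25 there was no Lhx1 cell. A count of 1 cell held for 8.20% of all genes. Lhx1 (16869) lies at chr11:84332881-84339036 in mm9.

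Cell 25 carried markers of the ureteric bud, the epithelial duct that the mesenchyme surrounds and that is known to express Lhx1 itself. It held Calb1 at 473 RPKM, Krt8 at 88.0, Ret at 59.6, Gata3 at 57.5, Epcam at 39.9, Wnt9b at 24.4 and Cdh1 at 4.76. It also held 12 of 17 stromal genes, with Foxd1 at 51.7 and Col1a1 at 41.7 RPKM. Six2 at 0.238 and Eya1 at 0.113 were below 1 RPKM, and Crym was at 4.19. Other genes of the nephron progenitor list were present, with Tmem100 at 86.7, Wt1 at 72.5 and Fgf20 at 46.5, and 4 of 16 were found where the median cell found 8. Whether this chamber held more than 1 cell was not tested. Emx2, a homeobox gene on the early nephron list, was found in this cell alone, at 28.4 RPKM.

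The partners through which LIM homeobox factors act were present without Lhx1. The cofactor Ldb1 was found in 35 cells at a median of 5.88 RPKM, and Ssbp3, which stabilises it, in 48 at a median of 59.5. In cell 25 they were at 46.3 and 100.3 RPKM. The list of Pax and LIM partners had 13 of 15 genes analysed, and a cell found 3 to 9 of them with a median of 6. Isl1, another LIM homeobox gene, was found in 5 cells with its highest value, 47.5 RPKM, in cell 47.

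Cdh6 was found in 2 of 49 cells (4.08%, 95% interval 0.498 to 14.0%), at 30.3 RPKM in cell 43 and 14.4 in cell 2. Cell 40 held a trace of 0.564 and 46 cells were at 0. Both cells were high, and neither was cell 3, 7, 25 or 27. A count of 2 cells or fewer held for 13.6% of all genes. Cdh6 (12563) lies at chr15:12963955-13103394 in mm9.

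Both Cdh6 cells held Foxd1 and collagen genes and lacked Six2. Foxd1 was at 30.3 RPKM in cell 43 and 30.6 in cell 2. Col3a1 was at 51.1 and 108, Col1a1 at 43.7 and 26.3 and the receptor Pdgfra at 10.3 and 118. They held 12 and 9 of 17 stromal genes (median of all cells 9) and 4 and 2 of 16 nephron progenitor genes (median 8). Six2 was at 0.207 and 0, Eya1 at 0.333 and 0.216 and Crym at 1.87 and 1.02, so both cells had Crym close to the threshold, where the median of all cells was 141 RPKM. Other progenitor genes were not low in cell 43, with Wt1 at 42.9, Meox1 at 25.4 and Sall1 at 20.8 RPKM. Cell 43 also held Jag1 at 1.23, but the pair had no Wnt4, Pax8 or Lhx1, and Ccnd1 was at 0 and 0.103 RPKM.

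Other cadherins set the background for Cdh6. Of 26 cadherin and catenin genes 20 were analysed, and a cell found 3 to 9 with a median of 6. Cdh11 was found in 46 cells at a median of 44.4 RPKM and Cdh2, N-cadherin, in 48 at 29.0, while Cdh1, E-cadherin, was found in cell 25 alone. In cells 43 and 2, Cdh11 was at 91.3 and 22.7 and Cdh2 at 23.1 and 6.22. Cdh6 in cell 2 therefore lay above Cdh2 and below Cdh11 on the per-length scale. In cell 43 it lay above Cdh2 and below Cdh11 as well. The 2 cells held 2 and 3 of 14 genes of the G2 and M phases, below the median of 8.

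Ccnd1 was unlike the other members in its breadth. It was found in 31 of 49 cells (63.3%, 95% interval 48.3 to 76.6%) and was high in 21 (42.9%, 28.8 to 57.8%). Its level in all 49 cells ran from 0 through a median of 5.24 to 202 RPKM in cell 25, and the next highest were 122 in cell 1, 87.0 in cell 42, 57.6 in cell 38 and 51.7 in cell 50. Cell 25 is the cell with bud genes. Ccnd1 was found in 30 cells without cells 25 and 27, and in 29 without cells 3 and 7. In the 31 cells the median was 22.9 RPKM, 10 cells held between 0 and 1, and 8 cells were at 0. Of all genes, 26.0% were found in 31 cells or more.

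The shallow cells limit some of these values. The step of Ccnd1 was 0.118 RPKM at median depth. Found cells other than cells 3 and 7 lay at 11.0 steps or more and cells below 1 RPKM at 6.61 or fewer. Outside cells 3 and 7 the cut of 1 RPKM itself lay at 5.93 to 12.9 steps, so that order was set by it. In cell 3 the whole value of 3.40 RPKM was 1 step, and in cell 7 the value of 22.9 RPKM was 9 steps. Ccnd1 (12443), at chr7:152115836-152125830 in mm9, overlaps Oraov1 over 817 bases, and the library chemistry keeps no strand. Oraov1 was found in 23 cells and shared 18 with Ccnd1, with a Spearman correlation of 0.201 over 49 cells, so reads from the shared bases cannot be told apart.

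Ccnd1 was spread over the mesenchyme classes. It was found in 12 of 18 cells with Six2 only, 11 of 15 with Foxd1 only, 6 of 9 with both and 2 of 7 with neither, at median levels of 5.78, 16.8, 3.40 and 0 RPKM. The classes overlapped widely. Gdnf, the growth factor that draws the bud into the mesenchyme, was found in 16 cells and 14 of them held Ccnd1, beside a product of 10.1. Cited1 was found in 12 and 6 held Ccnd1, beside 7.59. Counts for Six2 (18 shared, product 17.1) and Foxd1 (17 shared, product 15.2) lay close to their products.

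Ccnd1 was not the D cyclin with the highest level in most cells. Ccnd2, cyclin D2, was found in 46 cells at a median of 68.9 RPKM and Ccnd3 in 36 at 3.49. On the per-length scale Ccnd2 lay above Ccnd1 in 41 cells, below it in 6 (cells 5, 6, 7, 15, 16 and 24), and both were at 0 in cells 33 and 39. All 3 D cyclins were found in 23 cells, and 1 cell had none at 1 RPKM. Their kinase Cdk4 was found in 49 cells at a median of 822 RPKM, and the inhibitor Cdkn1c in 49 at 343. The list of D cyclin partners had 18 of 21 genes analysed, of which a cell found 4 to 13 with a median of 8. Ccne1, the cyclin that follows the D cyclins in G1, was found in 18 cells and shared 15 with Ccnd1, beside a product of 11.4.

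**Figure D2:**
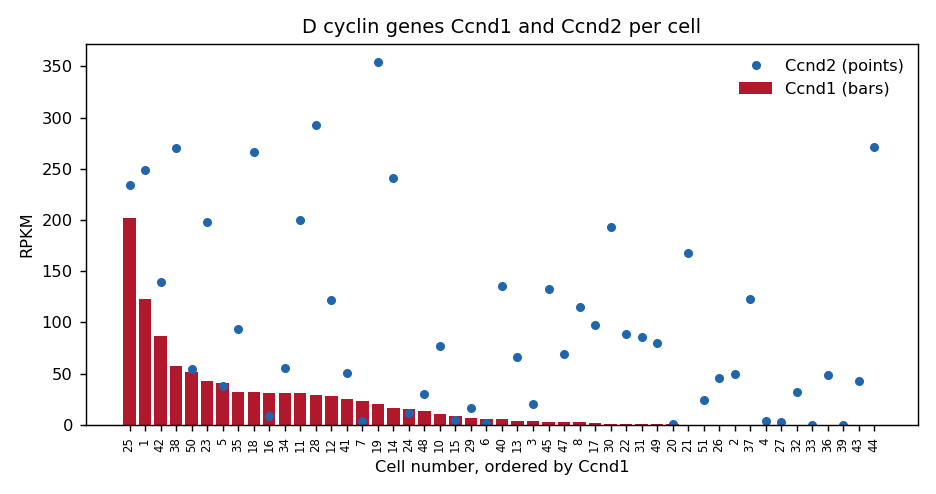
Ccnd1 (bars) and Ccnd2 (points) in RPKM in each of the 49 cells, ordered by Ccnd1. Ccnd2 lies above Ccnd1 in 41 cells and is spread up to 354 RPKM along the whole order, also where Ccnd1 is 0.

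Across the 49 cells, Ccnd1 and Ccnd2 had a Spearman correlation of 0.411, rank 65 among 10214 genes found in 5 cells or more. It was 0.443 without cells 3 and 7 and 0.353 without cells 25 and 27. Genes of S phase, such as the Mcm helicase subunits, all had a correlation above 0 with Ccnd1 (14 of 14, from 0.132 to 0.434, median 0.240), while 63.1% of all genes compared were above 0 with a median of 0.0484. For genes of the G2 and M phases 8 of 14 were above 0, with a median of 0.0339. The number of genes found per cell moved with Ccnd1 too, at 0.314, and its part was not tested, and relative depth had a correlation of -0.0411. These points share library preparation and chip, so the values describe these cells only.

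The genes most like Ccnd1 over the cells were Zzz3 at 0.545, Rassf7 at 0.529, Ncbp1 at 0.518, Cmah at 0.487 and Lasp1 at 0.482. The genes most like Jag1 were Ak4 at 0.698, Scd1 at 0.583, Apeh at 0.572, Pax8 at 0.567 and Eif3c at 0.549. By this measure Pax8 was among the 5 nearest genes of Jag1, but with Pearson's correlation of log2(RPKM + 1) or log2(RPKM + 0.1) 0 of those 5 were among the nearest. It shared only 3 found cells with Jag1 (cells 6, 25 and 47), and its traces in cells 12 and 50 and those of Jag1 in cells 21, 23 and 36 enter the ranks as well. Ak4 was found in 8 cells, 5 of them with Jag1. With 32 cells at 0 for Jag1, such a value rests on few cells. Genes of the G2 and M phases all had a correlation above 0 with Jag1 (14 of 14, median 0.174), where 63.6% of all genes compared were above 0 with a median of 0.0485, and the correlation of Jag1 with the number of genes found was 0.265. S phase genes had a median of 0.0142 with Jag1.

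Most cells found 1 of the 6 genes or none, and all but Ccnd1 were themselves found in 10 cells or fewer. None of the 6 was found in 14 cells, 1 in 23, 2 in 7, 3 in 3 and 4 in 2. Of the 12 cells with 2 or more, 11 were left without cells 25 and 27 and 11 without cells 3 and 7. Ccnd1 alone accounted for 20 cells. At least 1 of the other 5 was found in 15 cells, and 2 or more of those 5 in 6 cells. The 5 cells with 3 or more members were cell 6 (Wnt4, Pax8, Jag1, Ccnd1), cell 25 (Pax8, Lhx1, Jag1, Ccnd1), cell 23 (Wnt4, Pax8, Ccnd1), cell 28 (Wnt4, Jag1, Ccnd1) and cell 47 (Pax8, Jag1, Ccnd1). No cell held all 6, and no cell held Cdh6 with Wnt4, Pax8 or Lhx1, for which the products of counts over 49 are 0.122, 0.286 and 0.0408, so their absence from each other's cells is no result about them.

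Pairs were set beside the product of their counts over 49. Wnt4 and Pax8 shared 2 cells (product 0.429), Wnt4 and Jag1 shared 2 (0.612), Pax8 and Jag1 shared 3 (1.43) and Jag1 and Ccnd1 shared 9 (6.33). The one Jag1 cell without Ccnd1 was cell 43, the Cdh6 cell. Pax8 and Ccnd1 shared 5 (4.43), with cells 36 and 21 as the exceptions. The shared cells of Wnt4, Pax8 and Jag1 were cells 6, 23, 25, 28 and 47, and cell 6 alone held the 3 together.

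**Figure D3:**
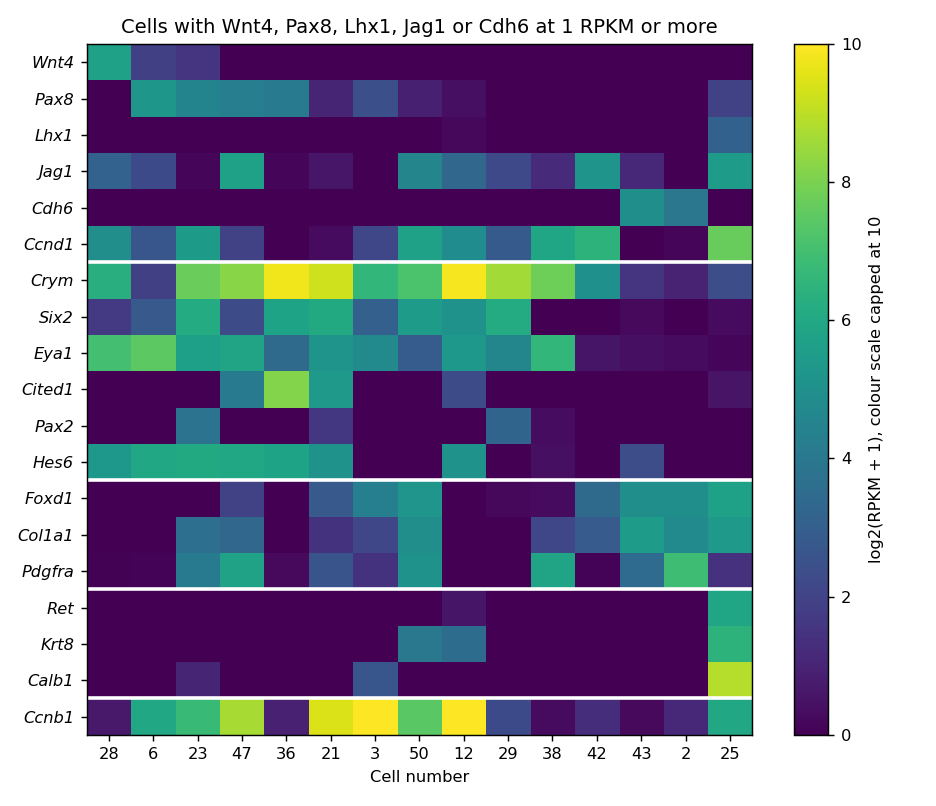
Level as log2(RPKM + 1) (colour) of the 6 genes and of markers (rows) in the 15 cells that found at least 1 of Wnt4, Pax8, Lhx1, Jag1 or Cdh6 (columns); white lines part the 6 genes from markers of nephron progenitors with Hes6, stroma, ureteric bud and mitosis. Cells 43 and 2 with Cdh6 have Foxd1 and little Crym, and Ret is high in cell 25 only.

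The early nephron list as a whole, with the 6 members in it, was mostly sparse. Of 18 genes 16 were analysed, and 14 of these were found in 10 cells or fewer. The same held for 38.1% of all 13093 genes. The exceptions on the list were Ccnd1 and Sfrp2, a secreted Wnt modulator, found in 40 cells and high in 28. Greb1 was found in 8 cells, Fgf8, a growth factor of the aggregates, in cell 34 at 10.3 and cell 19 at 1.11 RPKM, and Papss2 in cell 20. Fgf8 shared no cell with Wnt4, Pax8, Lhx1, Jag1 or Cdh6, and the products of counts over 49, at most 0.408, are below 1 cell. A cell found 0 to 7 genes of the list with a median of 2, and 16 cells found 3 or more, with 7 in cell 25 and 6 in cells 28, 47 and 50. Genes that every cell uses were not lost in this way, since Actb, Gapdh, Ppia and Eef1a1 were found in 49 cells, but the lower Tbp was found in 23 and Hprt in 39, so a gene at 0 in a cell may be present below what the method found.

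**Figure D4:**
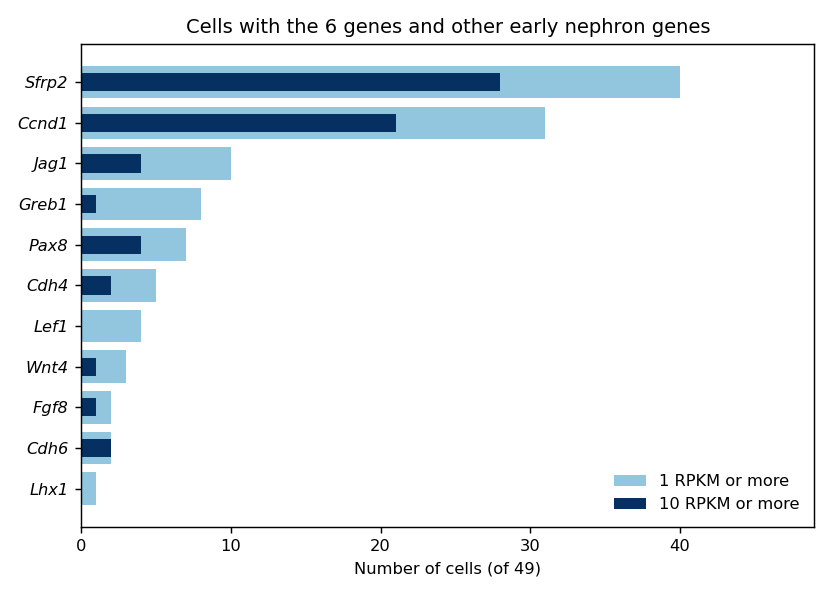
Number of cells (of 49) with each of the 6 genes, and with each other early nephron gene found in 2 cells or more, at 1 RPKM or more (light bars) and at 10 RPKM or more (dark bars). Sfrp2 at 40 and Ccnd1 at 31 stand above the other genes, which are found in 10 cells or fewer.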

How the data were processed

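RNA of 49 single cells was sequenced after capture on a Fluidigm C1 chip, amplification with SMARTer chemistry and Nextera XT library preparation on a HiSeq2500, per the labels' protocols. These steps keep neither strand nor molecular identifiers. Per the file headers, the authors deposited RPKM values. The submitters' processing notes name TopHat 1.4.1, DESeq and the build mm9, with no role or order; for the counter and the annotation the sources used here give no name. All 13093 genes had more than 3 RPKM in at least 1 cell, so genes low in every cell are not analysed here. Gene coordinates are printed as deposited, with the base from which they count unknown.

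Cells were matched to columns by number, and 0 columns of values were left unused. No cell was removed. Doublets were not called, as the cells are few; the submitters recorded under a microscope which chambers held single cells. Read totals are not in the table, so depth was only estimated relative to other cells, from ratios of low values, which cluster where both cells have the same low read number. This step and the likeness ranks were first run on simulated data. For likeness these were close copies of Ccnd1, which such a rank is bound to find, and for depth no limit to pass was set. Steps of a gene are its values times relative depth, in units of the lowest value that at least 3 cells share (tolerance 0.001); they need not be single reads. Intervals are exact Clopper-Pearson intervals at 95%. Likeness is Spearman's correlation over 49 cells for members found in 10 cells or more, against genes found in at least 5 cells. Promoter windows are RefSeq's, of GRCm38.p6, and were not mixed with mm9 coordinates.

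The members and all gene lists were chosen with earlier results of these data known. Named were the members in each cell that found them, list genes found in those cells (up to 8 per list), the 5 most alike genes, and genes that overlap a member. Keratin, Cdh4, Hes6, Gdnf and Cited1 counts, and list genes described for 1 cell, were singled out after their values were seen. At least 1 list gene is not reported here by name. Other lists served as checks: the median cell found 12 of 14 S phase, 8 of 16 nephron progenitor and 5 of 6 housekeeping genes. At most 2 of 2 analysed macrophage and 1 of 1 erythroid genes were found in a cell. Analyses used Python 3.11.15 with numpy 2.4.6, pandas 2.3.3, scipy 1.17.1 and matplotlib 3.10.9.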

Additional observations from a re-analysis of the deposited data

How the results depend on the processing

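Counts were recomputed at 0.5, 5 and 10 RPKM where they apply, without the shallow cells 3 and 7, without cells 25 and 27, and without Ccnd1. Of 74 recomputed values 64 stayed within 1.5 times the count, or within 0.1 for a correlation. Counts, and the correlation of whichever gene ranked as most alike, have no direction that could change. Only the correlation of Ccnd1 with Ccnd2 could change sign, and it did not. The most alike value was compared even where the gene itself changed. At 5 RPKM, Wnt4 was found in 1 cell (3 at 1 RPKM), Pax8 in 4 (7) and Jag1 in 6 (10); of these Jag1 cells 2 held Six2 and 3 held Foxd1. Lhx1 was found in 0 cells without cells 25 and 27. Cells with 2 or more members fell from 12 to 6 at 10 RPKM and to 6 without Ccnd1. Cells with no member numbered 23 at 10 RPKM and 34 without Ccnd1 (14 otherwise). With Pearson's correlation of log2(RPKM + 1) or log2(RPKM + 0.1), the gene most like Jag1 was Rab43 (0.719 and 0.607), and 0 of the 5 nearest genes were shared. Rassf7 (0.548) was nearest to Ccnd1 without cells 3 and 7. The cause of these changes was not tested. The omission of cells for the Ccnd1 correlations with Ccnd2 and S phase genes was chosen after seeing the data, and all 14 S phase genes stayed above 0. No paired analysis was possible because the cells form 1 group and nothing was tested.

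With 3 cells or fewer for Wnt4, Lhx1 and Cdh6, a gene's partners rest on single cells. Cells 3 and 7 are too shallow to show a low level.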
